A study of Mus musculus with 27 samples.

Results

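The genes described are 42 genes of DNA replication and S phase in C2C12 myotubes. They were chosen by name, as members of the replication machinery and its regulators, by a rule that uses no measured value. The choice was made with earlier results of these data known. All 42 were among the 20446 genes of the deposited count table, and all 42 were among the 12687 genes with enough reads to be tested. They fall into 9 roles: the replicative helicase (6 genes), origin licensing and helicase activation (9), primase and polymerases (7), sliding clamp and clamp loader (6), single-strand binding (3), lagging strand completion (2), nucleotide supply (4), G1/S regulators (3) and chromatin at the fork (2).

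Before a cell copies its genome, the origin recognition complex, Cdc6 and Cdt1 load the Mcm2 to Mcm7 ring onto origins in G1. At the start of S phase cyclin-dependent kinase and the Dbf4-dependent kinase turn this ring into an active helicase, together with Cdc45 and the GINS complex. Most of these genes are targets of E2F transcription factors, which drive them at the G1/S transition and which the retinoblastoma family holds back in resting cells. Myotubes are multinucleate cells that have left the cell cycle for good, while C2C12 cultures also keep mononucleate cells that did not fuse and can still divide.

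C2C12, an established mouse myoblast line, was grown in medium with 10% fetal bovine serum, and at about 90% confluence the cells were switched to 2% horse serum, which makes them differentiate. After differentiation they received a 2 h pulse of 50% horse serum, a treatment used to set the circadian clocks of cultured cells to a common phase. Total RNA depleted of ribosomal RNA was sequenced at 9 time points, every 6 h from 12 to 60 h after the pulse, with 3 libraries at each (27 in all). Every library had the same medium, cell line and pulse, so by the labels the groups differ only in the time since the pulse. No culture without the pulse was included. Whether the 3 libraries of a time point are separate cultures is not stated. Each p-value is therefore relative to library spread alone, and this spread may be technical. The libraries held 15187400 to 26615773 counted reads (median 20933580), and the 27 pairs of libraries from the same time point all differed by more than sampling noise. Levels are given in CPM, the counts of a gene relative to the scaled library size, and do not allow for gene length.

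Markers of the labelled cells were high throughout: the summed level of 28 myotube genes, among them Myog, Mymx and Myh4, averaged 30447 to 31841 CPM per time point. Immune and endothelial markers were near zero, at a summed 2.9 to 3.74 CPM per time point over 11 genes, with no read of Cd3e in any library. The cultures are a mixture, and in such bulk RNA fewer cells of a type and less RNA per cell cannot be told apart.

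The E2F site is the best known control element of this gene group. The stretches of 250 bases before the start of 4 members are shown here because they carry, or lack, set spellings of it. They were read from RefSeq on GRCm38.p6, on the strand of the gene, and the last base printed is the one just before the annotated start. Capitals mark every match to TTTGGCGC, TTTCGCGC, TTTCCCGC or TTTGCCGC on either strand, and where a match on one strand overlaps a match on the other the capitals run on. Mcm6 (chr1:128359706-128359955, minus strand) and Mcm5 (chr8:75109259-75109508, plus strand) encode helicase subunits, Pola1 (chrX:93632156-93632405, minus strand) the catalytic subunit of DNA polymerase alpha, and Rrm1 (chr7:102441445-102441694, plus strand) the large subunit of ribonucleotide reductase.
Mcm6: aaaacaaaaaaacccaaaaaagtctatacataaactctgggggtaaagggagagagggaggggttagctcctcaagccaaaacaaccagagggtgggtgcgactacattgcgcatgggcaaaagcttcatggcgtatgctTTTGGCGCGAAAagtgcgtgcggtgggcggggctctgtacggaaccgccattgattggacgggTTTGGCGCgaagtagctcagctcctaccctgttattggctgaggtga
Mcm5: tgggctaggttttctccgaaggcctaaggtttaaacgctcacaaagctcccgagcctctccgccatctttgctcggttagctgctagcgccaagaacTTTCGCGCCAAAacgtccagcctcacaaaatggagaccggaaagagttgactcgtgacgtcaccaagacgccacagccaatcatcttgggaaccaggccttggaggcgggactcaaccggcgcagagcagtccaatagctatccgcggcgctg
Pola1: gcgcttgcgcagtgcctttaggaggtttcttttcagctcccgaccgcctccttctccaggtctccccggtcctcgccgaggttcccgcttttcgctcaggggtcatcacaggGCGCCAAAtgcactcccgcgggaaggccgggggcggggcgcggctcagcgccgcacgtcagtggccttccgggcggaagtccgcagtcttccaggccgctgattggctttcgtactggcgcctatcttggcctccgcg
Rrm1: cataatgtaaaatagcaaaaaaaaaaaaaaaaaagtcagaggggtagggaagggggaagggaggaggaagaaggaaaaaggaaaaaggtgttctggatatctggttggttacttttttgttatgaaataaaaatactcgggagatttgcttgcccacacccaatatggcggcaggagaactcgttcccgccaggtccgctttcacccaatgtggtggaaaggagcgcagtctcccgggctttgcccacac
Mcm6 holds 3 matches and Mcm5 holds 2, and both have an overlapping pair on opposite strands. Pola1 holds 1 match, and Rrm1 holds none in these letters. Other spellings of the site were not searched for, so a stretch without a match may still hold a site.

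The 42 members lie on 14 chromosomes. On mm10 (GENCODE M21, whole gene models with introns), Mcm6 (ENSMUSG00000026355) lies on chromosome 1, 128331590 to 128359664, on the minus strand. Mcm5 (ENSMUSG00000005410) lies on chromosome 8, 75109569 to 75128439, on the plus strand. Cdc6 (ENSMUSG00000017499) lies on chromosome 11, 98907801 to 98923940, on the plus strand. Pold1 (ENSMUSG00000038644) lies on chromosome 7, 44532746 to 44548849, on the minus strand. Pola1 (ENSMUSG00000006678) lies on chromosome X, 93304767 to 93632155, on the minus strand. Tk1 (ENSMUSG00000025574) lies on chromosome 11, 117815526 to 117826092, on the minus strand. Rrm1 (ENSMUSG00000030978) lies on chromosome 7, 102441695 to 102469771, on the plus strand. Ccne2 (ENSMUSG00000028212) lies on chromosome 4, 11191351 to 11204779, on the plus strand.

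Most members had 1 course: their mean level was highest at 12 h, lower at 18 h, often lowest at 18 or 24 h, higher at 48 h and lower again at 54 and 60 h. The summed level of the 42 members was 2302, 2410.2 and 2543 CPM in the 3 libraries of 12 h, given from the lowest to the highest, and 1806, 1906 and 2004 CPM in those of 18 h. It was 1785, 1839.9 and 1873 CPM at 24 h, 2026, 2127 and 2358 CPM at 48 h and 1831, 1857 and 1953 CPM at 60 h. All libraries of 12 h thus lay above all libraries of 18, 24 and 60 h, while those of 48 h overlapped those of 12 h in part. Of the 42 members, 36 had their highest mean at 12 h. The 6 others were Rrm2, Orc1, Gins2 and Gins3 (highest at 48 h), Rrm1 (42 h) and Tk1 (54 h). The lowest mean was at 24 h for 16 members and at 18 h for 7 (Cdt1, Cdc6, E2f1, Ccne2, Orc1, Gins2 and Mcm3).

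**Figure D1:**
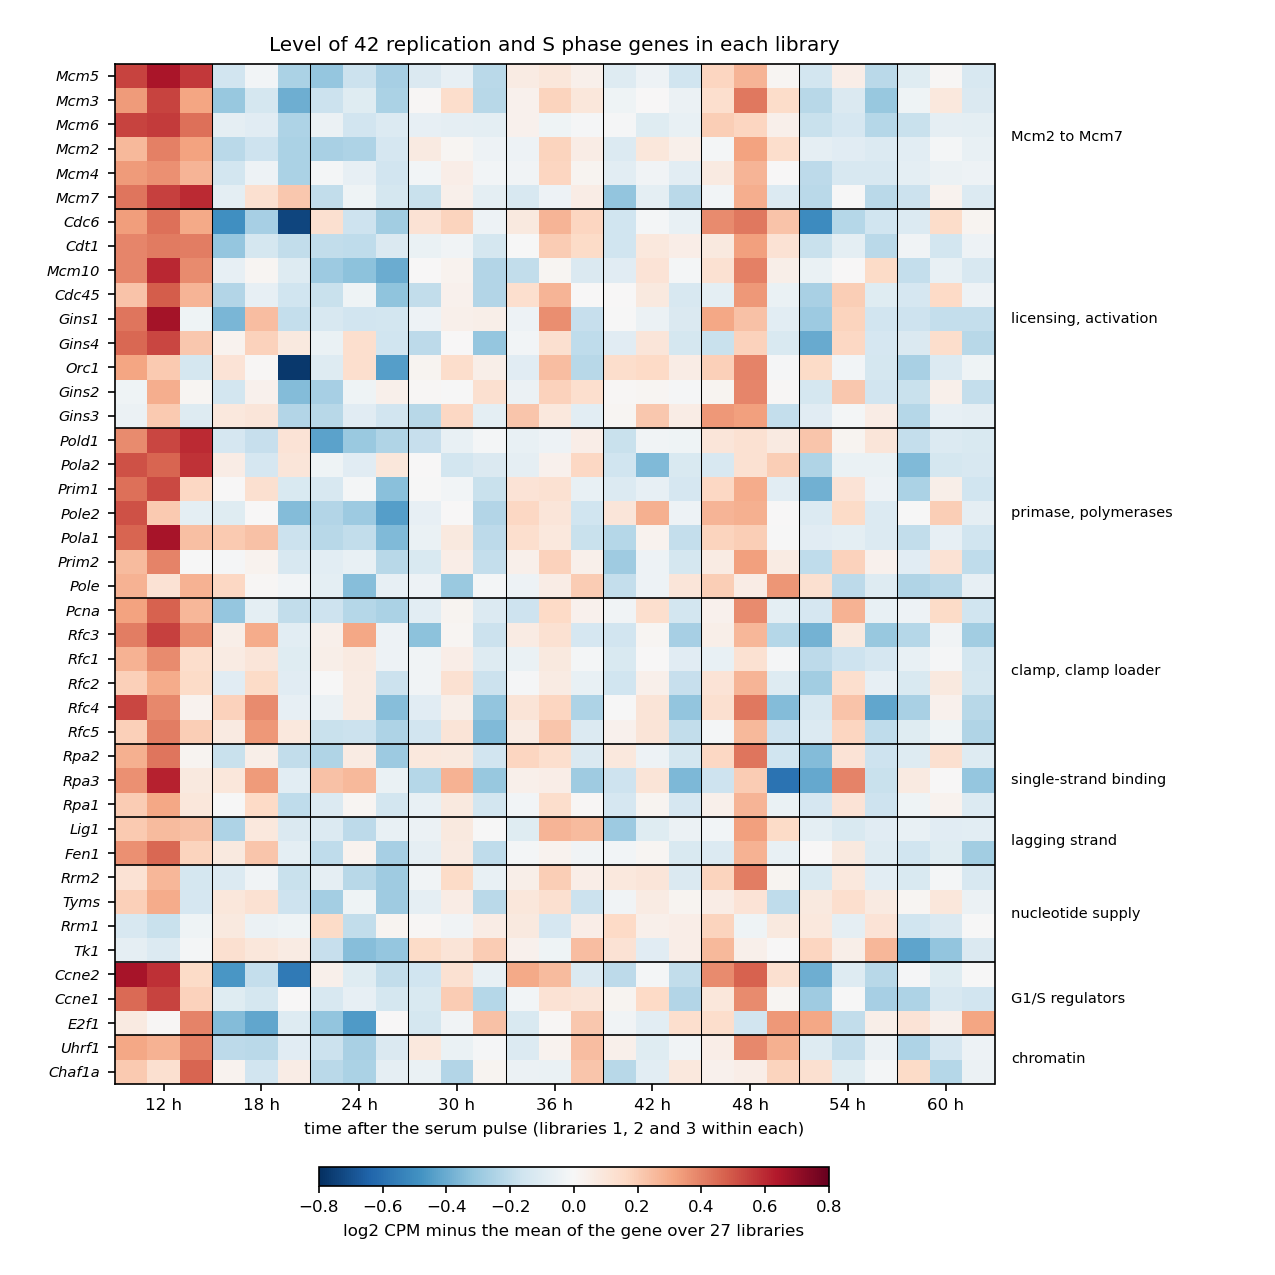
Level of each of the 42 members (grouped by role) in each of the 27 libraries, as log2 CPM minus the mean of that gene over all libraries; red is higher and blue lower. The 3 columns of 12 h are red for most genes, the columns of 18 and 24 h are mostly blue, and Rrm1 and Tk1 are not red at 12 h.

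Differences of any kind among the 9 time points passed edgeR's quasi-likelihood F test (p adjusted by Benjamini-Hochberg over the whole table, threshold 0.05) for 23 of the 42 members, where 18.5% of all genes tested passed. Without the 12 h libraries 11 members still passed, where 1197 of the 12646 genes then tested passed. These members were Uhrf1, Mcm2, Mcm3, Mcm5, Mcm6, Mcm10, Cdt1, Cdc6, Tk1, Ccne2 and Pold1. For 7 of the 23 leaving out a single library ended the call. Ccne1, Fen1, Prim1, Pcna and Rfc3 lost it without library 1 or library 2 of 12 h, Lig1 without library 2 of 12 h, and Pole without any 1 of 10 libraries (highest edgeR adjusted p 0.0703, 0.117, 0.177, 0.112, 0.0844, 0.052 and 0.101, in that order of genes).

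The question of when the members changed was addressed by the 8 steps between successive time points, and the largest number of calls fell in the first. From 12 to 18 h, 17 members fell and 0 rose, where 2.29% of all genes tested fell. The median log2 change over the 42 members was -0.36 (range -0.88 to 0.16), beside 0.01 over all genes, and 40 of 42 were below 0. In 25 members every library of 12 h was above every library of 18 h, which held for 7.69% of all genes tested. Against the libraries of 24 h this held for 33 members, and for 12.2% of all genes tested. The call held without each of the 27 libraries in turn for 13 of the 17: Mcm2, Mcm3, Mcm4, Mcm5, Mcm6, Mcm10, Cdt1, Cdc6, Pola2, Pold1, Pcna, Ccne2 and Uhrf1. Of the other 4, Mcm7 lost it without library 1 of 18 h (edgeR adjusted p = 0.0797). The rest were Cdc45 (without library 2 of 12 h or library 1 or 3 of 18 h, highest edgeR adjusted p 0.141), Ccne1 (without library 1 or 2 of 12 h or of 18 h, highest 0.117) and Rfc1 (without any of 25 libraries, highest 0.297).

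**Figure D2:**
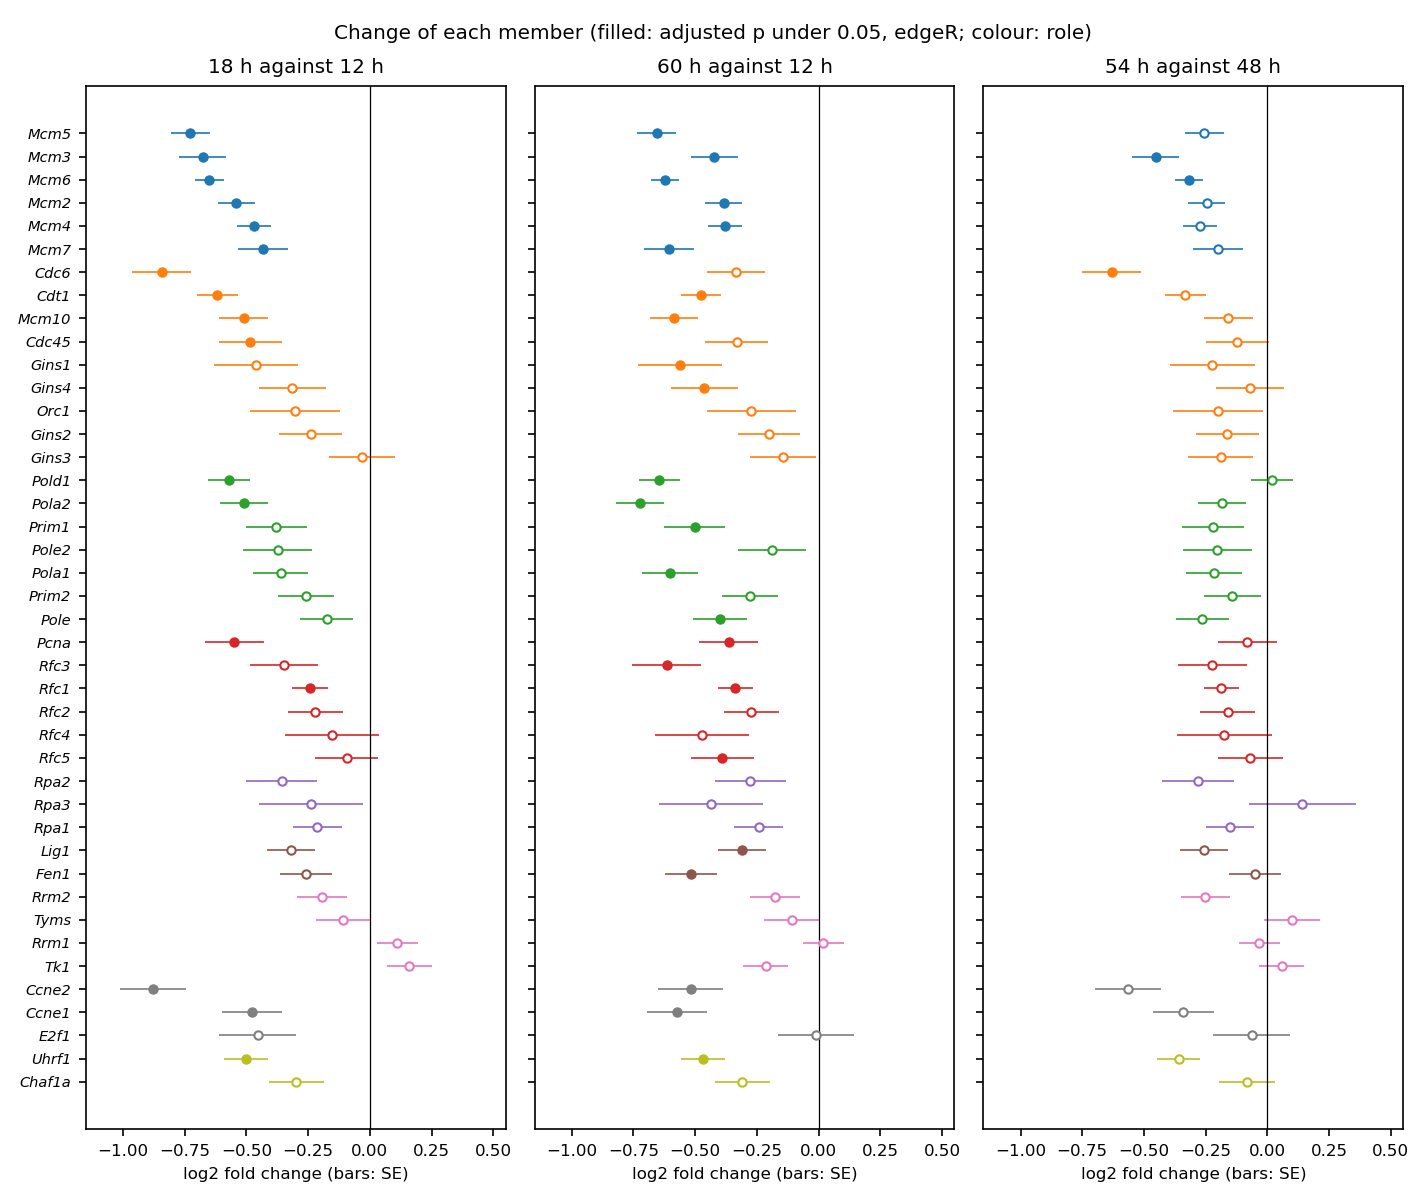
Log2 fold change of each member (points, with bars of 1 SE) from 12 to 18 h, from 12 to 60 h and from 48 to 54 h; filled points passed edgeR's test and colours separate the roles. From 12 to 18 h 40 of 42 points lie left of 0, and in the last panel 3 points are filled (Cdc6, Mcm3 and Mcm6).

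The replicative helicase, the ring that unwinds DNA ahead of the polymerases, had all 6 genes called lower at 18 h, with log2 changes from -0.73 to -0.43. Mcm6 had 193, 195 and 180.0 CPM in libraries 1, 2 and 3 of 12 h, 126, 124 and 112 at 18 h and 128, 119 and 123 at 24 h. It had 127, 126 and 125 CPM at 30 h, 136, 129 and 132 at 36 h and 132, 124 and 127 at 42 h. The values were 152, 149 and 136 CPM at 48 h, 117, 121 and 113 at 54 h and 117, 126 and 126 at 60 h. The 12 h libraries were thus above all 24 others, the 48 h libraries were next, and all libraries of the remaining time points lay between 112 and 136 CPM. The fall of Mcm6 from 12 to 18 h was 1.57-fold (log2 -0.65 ± 0.06, SE, n = 3 libraries per time point; edgeR adjusted p = 1.88e-07), the smallest p among the members at this step.

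Mcm5, whose levels were 92.7, 100.3 and 94.5 CPM at 12 h and 57.4, 62.8 and 53.5 CPM at 18 h, fell 1.65-fold (log2 -0.73 ± 0.08; edgeR adjusted p = 2.34e-06) and was at 59.7, 64.2 and 58.4 CPM at 60 h. Mcm3 went from 83.9, 96.4 and 82.4 CPM to 53.6, 60.1 and 50.5 CPM (log2 -0.68 ± 0.10; edgeR adjusted p = 6.91e-05). Mcm2 went from 92.6, 102 and 96.8 CPM to 66.6, 69 and 65 CPM (log2 -0.54 ± 0.07; edgeR adjusted p = 5.86e-05). For Mcm2, Mcm3 and Mcm5 no library of 18 h reached any library of 12 h. Mcm4 changed by log2 -0.47 ± 0.07 (edgeR adjusted p = 9.95e-05). Mcm7 changed by -0.43 ± 0.10 (edgeR adjusted p = 0.0107, and 0.0797 without library 1 of 18 h). Mcm7 shares 321 exonic bases with Ap4m1 and 64 with Cops6 on the opposite strand, and whether counting used the strand is not given in the sources used here, so its level is uncertain to that extent. The subunits form 1 ring in equal number. Their levels per kilobase of exon were 28.7 CPM per kb for Mcm6, 26.9 for Mcm4, 17.9 for Mcm3, 16.2 for Mcm5, 12.7 for Mcm7 and 11.2 for Mcm2, as means over the 27 libraries. The length used merges the exons of all annotated transcripts (4666 bases for Mcm6, 6956 for Mcm2). These levels therefore do not compare the subunits by transcript number.

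Among the genes of origin licensing and helicase activation, Cdc6, the loader that helps place the ring on origins, had the widest change. Its levels were 20.4, 21.9 and 19.9 CPM at 12 h, 11.5, 13.5 and 9.69 at 18 h, 17.6, 14.4 and 13.3 at 24 h and 17.5, 18.3 and 15.7 at 30 h. They were 17.1, 19.5 and 18.2 CPM at 36 h, 14.5, 16 and 15.5 at 42 h, 21, 21.6 and 18.9 at 48 h, 11.4, 13.8 and 14.5 at 54 h and 15, 17.9 and 16.4 at 60 h. The libraries of 12 and 48 h overlapped each other and lay above all libraries of 18 and 54 h. From 12 to 18 h Cdc6 fell 1.79-fold (log2 -0.84 ± 0.12; edgeR adjusted p = 6.95e-05), and at 60 h its difference from 12 h did not pass (log2 -0.33 ± 0.12, 95% interval -0.58 to -0.09; edgeR adjusted p = 0.054).

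Cdt1, the partner of Cdc6 in ring loading, measured 23, 23.4 and 23.3 CPM at 12 h and 14.1, 15.9 and 15.3 CPM at 18 h, and fell 1.53-fold (log2 -0.62 ± 0.08; edgeR adjusted p = 4e-05). Mcm10, which helps start the helicase and recruits polymerase alpha, went from 20.6, 24 and 20.5 CPM to 15, 15.9 and 14.6 CPM (log2 -0.51 ± 0.10; edgeR adjusted p = 0.00189) and was lower still at 24 h, at 12.9, 12.6 and 12 CPM. In both genes the libraries of 12 h did not overlap those of 18 h. Cdc45, the helicase cofactor, measured 33.3, 39.7 and 34.3 CPM at 12 h and 24.1, 27.1 and 25.4 CPM at 18 h, a change of log2 -0.48 ± 0.13 (edgeR adjusted p = 0.0253), and lost this call without each of the 3 libraries named above. Of the 4 GINS genes and Orc1, a subunit of the origin recognition complex, 0 of 5 passed at this step by edgeR, DESeq2 or limma-voom with no term for the library number, with 2 at an unadjusted p under 0.05. Their log2 changes ran from -0.46 (Gins1) to -0.03 (Gins3). Gins1 measured 9.36, 11 and 6.79 CPM at 12 h and 5.41, 8.24 and 6.08 CPM at 18 h, so its groups overlapped (95% interval of the log2 change -0.81 to -0.11).

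Of primase and the polymerases, 2 of 7 fell from 12 to 18 h. Pold1, the catalytic subunit of polymerase delta, had 27.2, 30.5 and 31.7 CPM at 12 h, 19.1, 18.5 and 22.6 CPM at 18 h and 15.6, 17.1 and 17.7 CPM at 24 h, and its libraries of 12 h lay above all those of 18 and 24 h. It fell 1.48-fold by 18 h (log2 -0.57 ± 0.08; edgeR adjusted p = 0.000109). Pola2, the accessory subunit of polymerase alpha, went from 35.7, 34.6 and 37.3 CPM to 26, 22.8 and 26.8 CPM (log2 -0.51 ± 0.10; edgeR adjusted p = 0.00154) and reached 19.6, 22.7 and 22.9 CPM at 60 h. Pola1, the catalytic subunit of the same enzyme, measured 72, 82.6 and 61.7 CPM at 12 h, 60.3, 61.4 and 46.5 CPM at 18 h and 44.8, 45.6 and 41 CPM at 24 h. Its difference at 18 h did not pass (log2 -0.36 ± 0.11, 95% interval -0.60 to -0.13; edgeR adjusted p = 0.0705), while at 60 h it was 1.52-fold lower (log2 -0.60 ± 0.11; edgeR adjusted p = 0.000471). Prim1, the catalytic primase subunit that lays the RNA primer, was at 36.1, 38.4 and 29.9 CPM at 12 h and 22.3, 27.5 and 23.8 CPM at 60 h and fell over that span (log2 -0.50 ± 0.12; edgeR adjusted p = 0.00615). Prim2, Pole and Pole2 did not pass at 18 h, with log2 changes of -0.26, -0.17 and -0.37.

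The sliding clamp Pcna, the ring that holds polymerases on DNA, fell by 18 h. It measured 76.5, 85 and 73.5 CPM at 12 h and 49.4, 57.9 and 53.3 CPM at 18 h without overlap (1.46-fold, log2 -0.55 ± 0.12; edgeR adjusted p = 0.00589). At 48 h library 2 of Pcna, at 79.5 CPM, was again within the range of 12 h, while libraries 1 and 3 were at 62.5 and 58 CPM. The annotation holds 2 processed Pcna pseudogenes and 1 of Tyms that are not in the count table, so reads from near-identical copies may be counted with the genes or lost. Of the 5 subunits of the clamp loader, which opens the ring, only Rfc1 passed at 18 h (log2 -0.24 ± 0.07; edgeR adjusted p = 0.0488). It lost the call without any of 25 libraries (highest 0.297). Rfc1 was at 119.7, 128 and 109 CPM at 12 h and 95, 98.1 and 89.2 CPM at 60 h, where its fall held without each library (log2 -0.34 ± 0.07; edgeR adjusted p = 0.00148). Rfc3 fell over the same span from 39.2, 43.2 and 38.2 CPM to 25.3, 29 and 24.4 CPM (log2 -0.62 ± 0.14; edgeR adjusted p = 0.00272). Rfc5 did not pass at the first step (log2 -0.09 ± 0.13, 95% interval -0.36 to 0.17) and fell by 60 h (log2 -0.39 ± 0.13; edgeR adjusted p = 0.0423), a call that was lost without any 1 of library 1 or 2 of 12 h and the 3 libraries of 60 h (highest 0.166).

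The 3 subunits of replication protein A, which coats single-stranded DNA, passed edgeR's test, with no term for the library number, in 0 of 3 cases for any change, for 18 against 12 h and for 60 against 12 h. At an unadjusted p under 0.05 these were 0, 2 and 1, and DESeq2 and limma-voom also called 0. Rpa1 was at 161, 173 and 149 CPM at 12 h and 139, 156 and 122 CPM at 18 h, with overlap (log2 -0.21 ± 0.10, 95% interval -0.41 to -0.01; edgeR adjusted p = 0.313). Rpa2 changed by log2 -0.36 ± 0.14 over that step (95% interval -0.66 to -0.06) and Rpa3 by -0.24 ± 0.21 (95% interval -0.68 to 0.20). Of the genes that finish the lagging strand, Fen1, the flap nuclease, went from 60.5, 64.6 and 53.2 CPM at 12 h to 42, 44 and 38.7 CPM at 60 h (log2 -0.52 ± 0.10; edgeR adjusted p = 0.00106), without overlap. Fen1 shares 1909 exonic bases with the antisense gene Gm10143, which is not in the count table, and is uncertain to that extent. Lig1, the ligase that seals the fragments, was at 44.9, 46.2 and 45.8 CPM at 12 h and 37.3, 36.4 and 36.6 CPM at 60 h, again without overlap (log2 -0.31 ± 0.10; edgeR adjusted p = 0.0307), and this call was lost without any 1 of the 6 libraries compared (highest 0.0768).

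Of the genes of nucleotide supply 0 of 4 passed edgeR's test, with no term for the library number, at 18 h and 0 of 4 at 60 h against 12 h, with 0 and 1 at an unadjusted p under 0.05, and DESeq2 and limma-voom also called 0 in both. Rrm1, the large subunit of ribonucleotide reductase, was lowest at 12 h, with 202, 195 and 216 CPM in its libraries, and was at 234, 214 and 216 CPM at 18 h, 246, 193 and 224 CPM at 24 h and 198, 204 and 221 CPM at 60 h. Its groups overlapped and its highest mean was 1.15 times its lowest, the smallest ratio among the members (18 against 12 h: log2 0.11 ± 0.08, 95% interval -0.06 to 0.28). Rrm2, the small subunit, was at 170.2, 189 and 143 CPM at 12 h, 145, 154 and 139 CPM at 18 h and 178, 209 and 159.6 CPM at 48 h, with overlap (18 against 12 h: log2 -0.19 ± 0.10, 95% interval -0.40 to 0.02). Per kilobase of merged annotated exon Rrm2 had the highest level of the members, 57 CPM per kb, followed by Mcm6 with 28.7, and Orc1 the lowest, 1.66. The length used covers the exons of all annotated transcripts, 2771 bases for Rrm2 and 11012 for Rrm1. This order thus depends on the annotation and does not rank the members by transcript number. Tyms, thymidylate synthase, stayed within 24.9 to 37.3 CPM in all 27 libraries.

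Tk1, the thymidine kinase of the salvage pathway, was called at 2 steps where no other member was. It measured 24.9, 24.3 and 25.9 CPM at 12 h, 28.6, 27.9 and 27.4 at 18 h, 23.1, 20.6 and 21.1 at 24 h and 29.1, 28.2 and 30.2 at 30 h. Its later values were 26.8, 25.6 and 31.1 CPM at 36 h, 28.4, 24.6 and 27.2 at 42 h, 31.4, 26.9 and 26.3 at 48 h, 29.5, 27.1 and 31.5 at 54 h and 19.6, 21.1 and 24.1 at 60 h. The libraries of 24 h lay below all those of 18 and 30 h. Tk1 was the only member called from 18 to 24 h, when 1.86% of all genes tested passed and 0.883% fell (Tk1: log2 -0.37 ± 0.09; edgeR adjusted p = 0.035). It was also the only member called from 24 to 30 h, when 0.733% of all genes tested passed and 0.623% rose (Tk1: log2 0.43 ± 0.09; edgeR adjusted p = 0.0225). The fall of Tk1 was lost without library 1 of 12 h or any library of 18 or 24 h (highest 0.165), and its rise without library 2 or 3 of 24 h or any library of 30 h (highest 0.171). Tk1 shares 83 exonic bases with Afmid on the opposite strand. Such overlap was 2758 bases for Gins2 with Gse1, 952 for Rfc2 with Lat2, 499 for Rfc5 with Wsb2, 247 for Lig1 with Zswim9, 209 for Cdc45 with Ufd1 and 194 for Rfc4 with Eif4a2.

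Of the G1/S regulators, Ccne2 had the widest change of all 42 members at the first step. Ccne2 encodes cyclin E2, which with Cdk2 starts S phase. It measured 47.6, 45.3 and 33.6 CPM at 12 h, 21.9, 26.5 and 20.4 at 18 h, 39.3, 41.8 and 33 at 48 h and 23, 28.1 and 25.9 at 54 h. Every library of 12 h was above every library of 18 h, and every library of 48 h above those of 54 h. The fall by 18 h was 1.84-fold (log2 -0.88 ± 0.13; edgeR adjusted p = 0.000161). At 60 h Ccne2 was lower than at 12 h (log2 -0.52 ± 0.13; edgeR adjusted p = 0.00804, and 0.0596 without library 1 of 12 h), and 609 of its exonic bases overlap Ints8 on the opposite strand. Ccne1, its paralog cyclin E1, went from 23.3, 24.8 and 19.4 CPM at 12 h to 15.9, 15.5 and 17.1 at 18 h and 14.4, 15.6 and 15.4 at 60 h (60 against 12 h: log2 -0.57 ± 0.12; edgeR adjusted p = 0.00159). E2f1, the transcription factor that drives many of the others, was at 17.6, 16.8 and 22 CPM at 12 h, 13.1, 12.5 and 15.5 at 18 h and 18, 17.2 and 20.8 at 60 h. No library of 18 h reached those of 12 h, but the difference did not pass (log2 -0.45 ± 0.16, 95% interval -0.78 to -0.13; edgeR adjusted p = 0.112).

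Uhrf1, which brings the maintenance methylase Dnmt1 to newly copied DNA, fell from 83.3, 81.5 and 88.9 CPM at 12 h to 58.3, 57.9 and 63.3 CPM at 18 h without overlap (1.41-fold, log2 -0.50 ± 0.09; edgeR adjusted p = 0.000709). It was at 69.9, 87.8 and 81.7 CPM at 48 h and 56.7, 61.3 and 65.5 CPM at 60 h. Chaf1a, the large subunit of the chromatin assembly factor that places histones behind the fork, was at 39.4, 37.3 and 47.1 CPM at 12 h and 34.7, 30.6 and 35.4 CPM at 18 h and did not pass (log2 -0.30 ± 0.11, 95% interval -0.53 to -0.07; edgeR adjusted p = 0.164). Chaf1a shares 4648 exonic bases with Ubxn6 on the opposite strand, which had a mean of 1496 counts per library, so reads of these genes cannot be told apart if strand was not used in counting.

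**Figure D3:**
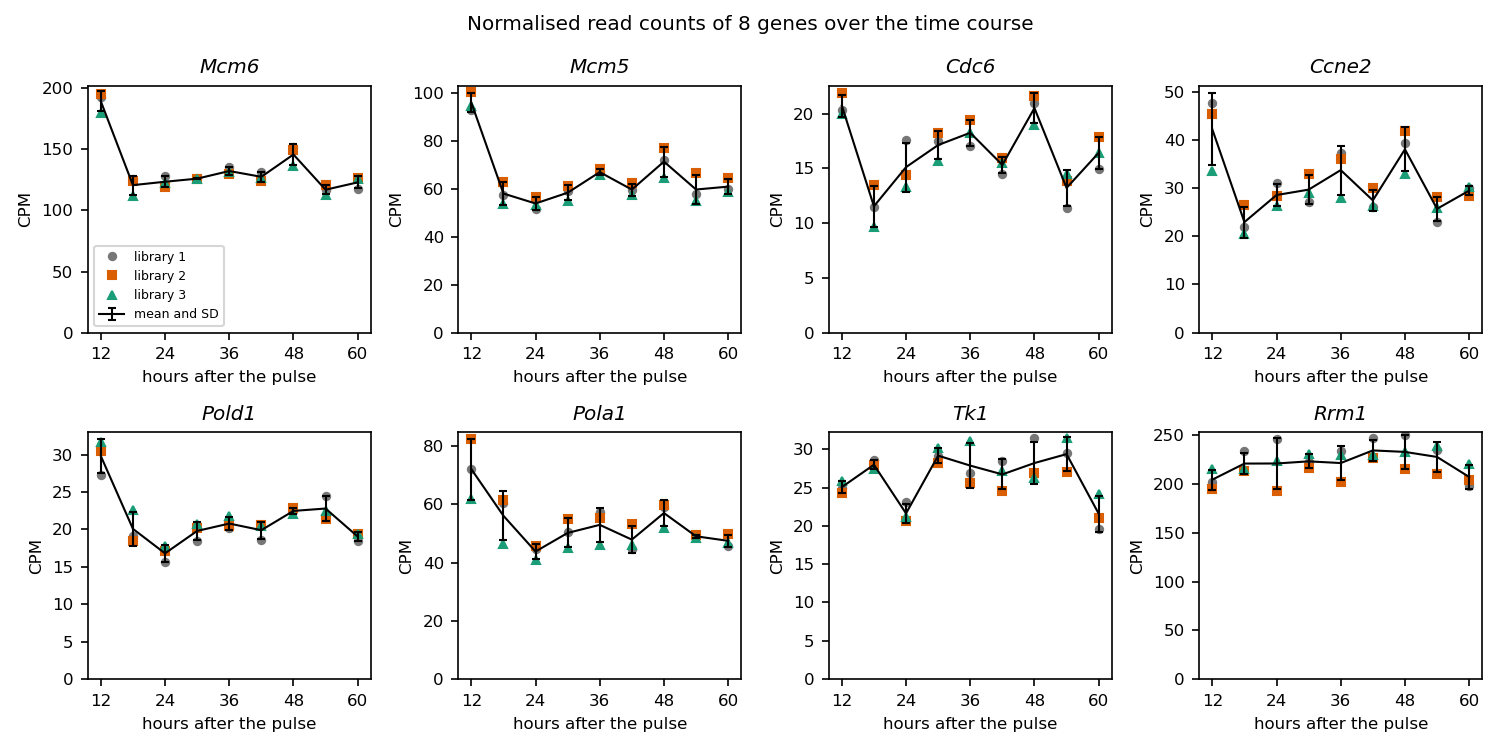
Level in CPM of 8 members against hours after the pulse, with 1 symbol for each library number and a line through the means with bars of 1 SD (n = 3). Mcm6, Mcm5, Pold1 and Pola1 stay below their 12 h level, Cdc6 and Ccne2 come back close to it at 48 h, Tk1 dips at 24 and 60 h, and Rrm1 stays between 193 and 249.9 CPM.

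The comparison of the last with the first time point, the same phase of a 24 h cycle 2 cycles apart, gave lower levels at 60 h for 41 of 42 members. At 60 h 24 members were lower by edgeR's test than at 12 h and 0 were higher, where 6.56% of all genes tested were lower. The median over the 42 members was -0.39 (beside -0.01 over all genes), and in 30 members no library of 60 h reached any of 12 h (15.5% of all genes tested). The widest falls were those of Pola2 (log2 -0.72 ± 0.10; edgeR adjusted p = 7.92e-06), Mcm5 (log2 -0.66 ± 0.08; edgeR adjusted p = 1.4e-06), Pold1 (log2 -0.64 ± 0.08; edgeR adjusted p = 5.45e-06) and Mcm6 (log2 -0.62 ± 0.06; edgeR adjusted p = 3.45e-08). For 17 of the 24 the call held without each of the 27 libraries. It was lost without 1 or more single libraries of 12 or 60 h for Pole, Pcna, Gins1, Gins4, Ccne2, Rfc5 and Lig1 (highest edgeR adjusted p 0.0592, 0.159, 0.166, 0.0979, 0.0596, 0.166 and 0.0768, in that order).

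At 36 h, 1 cycle after 12 h, 16 members were lower and 0 higher, where 6.75% of all genes tested were lower and 9.3% higher. The median was -0.26, and in 22 members the libraries did not overlap (13.7% of all genes tested). Only 9 were lower without library 2 of 12 h, and 9 without library 1 of 36 h. The call held without each library for 7: Mcm4, Mcm5, Mcm6, Mcm7, Mcm10, Pola2 and Pold1. Between 36 and 60 h 0 members passed edgeR's test (0.859% of all genes tested passed), 6 had an unadjusted p under 0.05, DESeq2 called 1 lower and limma-voom 0. Of the 12687 genes tested DESeq2 called 83 lower over that span. The 60 h and 36 h comparisons share the 12 h libraries. Mcm6 was at 132 ± 3.07 CPM (SD, n = 3) at 36 h and 123 ± 4.94 at 60 h, beside 189 ± 8.23 at 12 h.

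Most members had higher levels at 48 h than at 24 h, and 3 of them fell from 48 to 54 h. From 24 to 48 h, within the libraries of each number, 38, 40 and 37 of the 42 members were higher (libraries 1, 2 and 3, in that order), where 49.2%, 47.9% and 49.3% of all genes tested were higher, and the median changes were 0.25, 0.38 and 0.21 on the log2 scale. In the fit without a term for the library number 0 members passed edgeR's test from 30 to 36 h, from 36 to 42 h and from 42 to 48 h, where 0.189%, 0.575% and 0.134% of all genes tested passed. At an unadjusted p under 0.05 there were 3, 6 and 14 members, and DESeq2 and limma-voom also called 0. From 48 to 54 h 3 members fell, where 0.118% of all genes tested fell. They were Cdc6 (log2 -0.63 ± 0.12; edgeR adjusted p = 0.0159), Mcm3 (log2 -0.45 ± 0.10; edgeR adjusted p = 0.0445) and Mcm6 (log2 -0.32 ± 0.06; edgeR adjusted p = 0.0129). Mcm3 measured 72.6, 88.9 and 73.5 CPM at 48 h and 56.8, 61.2 and 53.7 CPM at 54 h. The libraries of 48 h lay above those of 54 h in 12 members (4.5% of all genes tested), and 38 of 42 members were below 0 with a median of -0.19.

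These 3 calls from 48 to 54 h were lost, with 0 members passing, without library 2 of 48 h or without library 1 of 54 h. Without library 1 of 48 h 1 member passed, Uhrf1, and without library 3 of 54 h 1 passed, Cdc6. The highest edgeR adjusted p without 1 library was 0.157 for Cdc6, 0.29 for Mcm3 and 0.106 for Mcm6. DESeq2 called 6 members at this step, the same 3 and Ccne2, Mcm4 and Uhrf1, and limma-voom 2. Of the 12687 genes tested DESeq2 called 64 (32 lower) and limma-voom 26 (14 lower). From 54 to 60 h edgeR called 0 members (0.0709% of all genes tested passed), with 3 at an unadjusted p under 0.05, DESeq2 called 1 and limma-voom 0. Over all genes tested DESeq2 called 31 at this last step.

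A 24 h rhythm was looked for because circadian control is the subject of the series. With a cosine and a sine of a 24 h period beside a linear slope, 0 of 42 members passed edgeR's test, as did 0.0552% of all genes tested, and 0 members had an unadjusted p under 0.05; DESeq2 and limma-voom also called 0. The fitted swing from trough to peak ran from 0.03 to 0.28 on the log2 scale. Along the slope itself 5 members fell and 0 rose, where 8.72% of all genes tested fell and 10.7% rose, so the share of members is near the background. Pola2 changed by log2 -0.47 ± 0.11 per 48 h (edgeR adjusted p = 0.00229), Rfc3 by -0.45 ± 0.12 (edgeR adjusted p = 0.00639), Mcm7 by -0.41 ± 0.11 (edgeR adjusted p = 0.00979), Mcm6 by -0.31 ± 0.11 (edgeR adjusted p = 0.047) and Rfc1 by -0.26 ± 0.06 (edgeR adjusted p = 0.00374). Without the 12 h libraries 0 members fell along the slope, where 493 of the 12646 genes then tested fell. The slope of Mcm6 then turned to 0.10. Mcm6 also lost the call without any of 12 single libraries (highest 0.149). The count was 8 without library 3 of 24 h or library 1 of 30 h, 9 without library 3 of 30 h and 12 without library 2 of 48 h. Counts over all genes are not given here for these fits, so they have no background beside them. In a further fit a term alternating between successive time points was added. For that term 14 of 42 members had an unadjusted p under 0.05 by edgeR's test. Its share over all genes is not given here, and its cause was not tested.

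Libraries with the same number shared a level of the members. Those numbered 2 had the highest summed level of the members at 8 of 9 time points, and their median deviation from the mean of their time point was above 0 at 9 of 9 (0.09 on the log2 scale on average, beside -0.02 for libraries 1 and -0.06 for libraries 3). Of the 42 members 32 were highest in library 2 at 5 or more time points. The mitosis genes, the other fork factors and the other nucleotide genes were likewise above 0 in libraries 2 at 9 of 9 time points, myotube markers at 7 of 9 and myoblast markers at 1 of 9. The E2F targets and S phase checkpoint genes did not share this and were above 0 in libraries 2 at 4 of 9. What the number stands for is not given in the sources used here. Fits with the number as a term, and without all libraries of a number, are given with the other alternatives. Within the libraries numbered 1, 2 and 3 alone, the members changed between 12 and 18 h by a median of -0.43, -0.37 and -0.35. In the same order 39, 40 and 40 of them were lower, where 49.2%, 50% and 48.5% of all genes tested were lower.

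**Figure D4:**
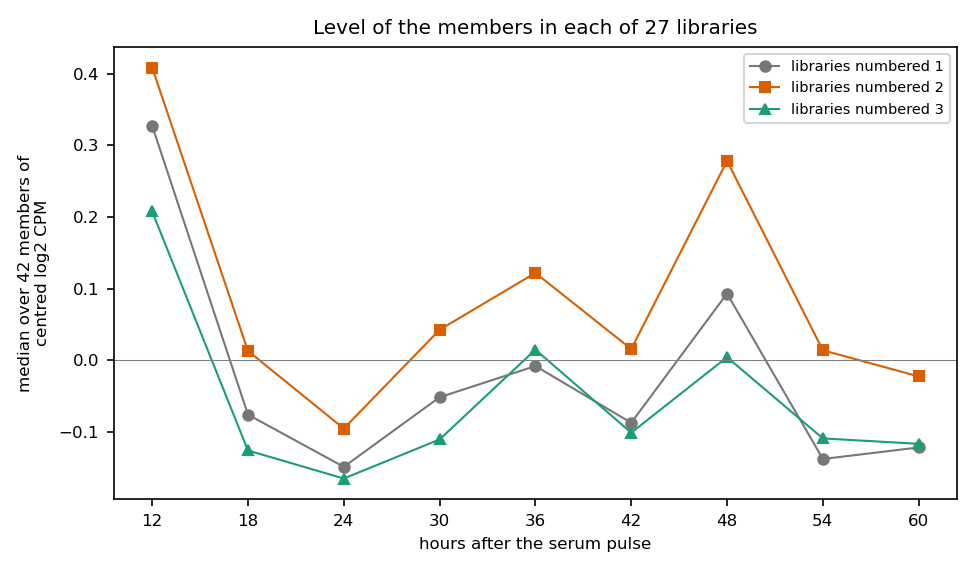
Median over the 42 members of centred log2 CPM in each of the 27 libraries, against hours after the pulse, with a line for the libraries of each number. All 3 lines drop from 12 to 18 h and further to 24 h, lie above their 24 h level at 48 h after a dip at 42 h, and the line of libraries 2 is the highest at every time point.

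Other genes of the pathway, taken from lists chosen by function, more often fell than rose at the first step, whereas mitosis genes rose. Of all genes tested 2.29% fell and 2.79% rose at this step, and 6.56% were lower at 60 than at 12 h. Of 36 other licensing and fork factors 9 fell from 12 to 18 h and 1 rose, the topoisomerase Top2a (median -0.23), and 16 fell and 0 rose by 60 h. Wdhd1, a fork factor that ties polymerase alpha to the helicase, went from 30.5 ± 1.67 CPM to 20.7 ± 2.45 CPM (SD, n = 3; log2 -0.56 ± 0.09; edgeR adjusted p = 0.000459). Of 24 other genes of nucleotide supply 10 fell and 0 rose (median -0.28). Among them Shmt2, a one-carbon enzyme of mitochondria, went from 296 ± 9.11 CPM to 185 ± 25.1 CPM and to 137 ± 3.28 CPM at 60 h (18 against 12 h: log2 -0.68 ± 0.09; edgeR adjusted p = 5.72e-05). Whether these genes and the 4 members of nucleotide supply differ in their change was not tested. Of 40 E2F targets and S phase checkpoint genes 12 fell and 1 rose (median -0.13). Chaf1b, the partner subunit of Chaf1a, fell (log2 -0.78 ± 0.10; edgeR adjusted p = 1.96e-05). The gene that rose was Ccna2, cyclin A2, which acts from S phase into mitosis, from 89.6 ± 1.09 CPM to 145 ± 19.4 CPM (log2 0.70 ± 0.07; edgeR adjusted p = 1.88e-06).

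Of 36 mitosis and spindle genes 30 rose and 0 fell from 12 to 18 h (median 0.68; 2.79% of all genes tested rose), the reverse of the replication genes over the same libraries. Top2a, which rose among the fork factors, is also on this list and is among the 30. Cenpf, a kinetochore protein made in G2, rose from 67.2 ± 1.75 CPM to 141 ± 15.7 CPM (log2 1.07 ± 0.08; edgeR adjusted p = 1.44e-08), and Kif20a, a kinesin of cytokinesis, from 82.8 ± 3.22 CPM to 143 ± 19.3 CPM (log2 0.79 ± 0.08; edgeR adjusted p = 1.18e-06). The summed level of the mitosis genes was 1722 to 1905 CPM at 12 h and 2464 to 3295 CPM at 18 h, so the libraries did not overlap. At 60 h 24 of the 36 were still above 12 h and 0 were below (9.5% of all genes tested were higher).

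**Figure D5:**
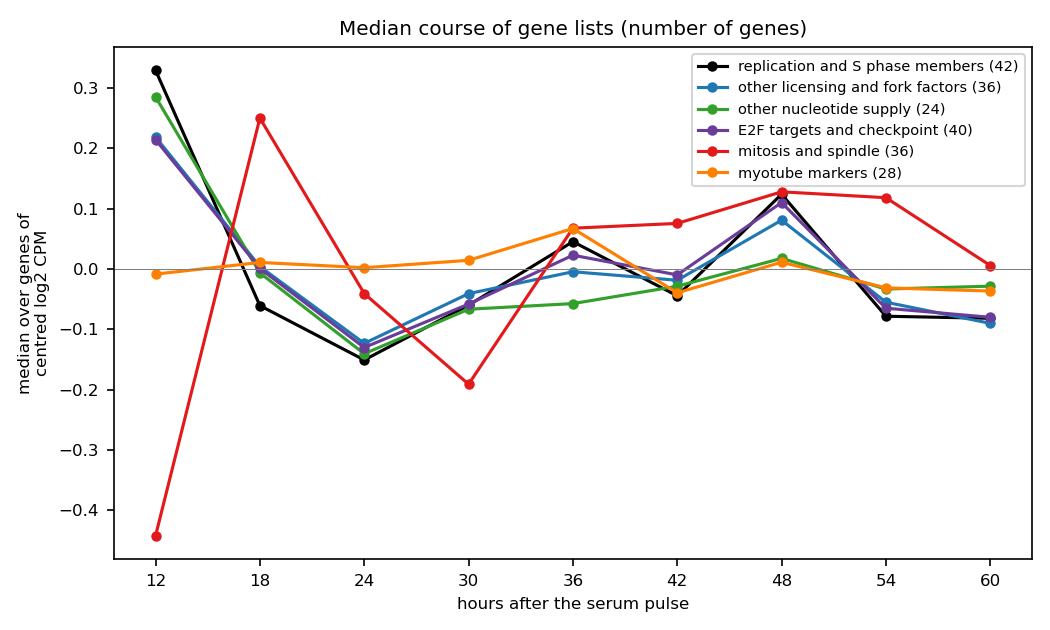
Median over the genes of each list of the centred log2 CPM mean of each time point, against hours after the pulse. The replication members, the other fork factors, the nucleotide genes and the E2F targets are highest at 12 h, the mitosis genes are lowest at 12 h and highest at 18 h, and the myotube markers stay within 0.07 of 0.

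Of 18 genes of cell cycle exit that could be tested 2 rose and 0 fell from 12 to 18 h, Cdkn2c and Cdkn2d, which encode inhibitors of the cyclin D kinases (Cdkn2d: 19.8 ± 1.97 CPM to 28.3 ± 3.49 CPM; log2 0.52 ± 0.14; edgeR adjusted p = 0.0374). Cdkn2a and Cdkn2b had no read, which allows up to 0.00522 CPM over all libraries. Marker levels of the cell types that the cultures can hold are given beside the falls of the members, and their part in those falls was not tested. From 12 to 18 h 1 of 28 myotube markers rose (Myh1) and 0 fell, 2 of 15 myoblast and reserve cell markers rose (Id3 and Sdc4) and 1 fell (Cd34), and 2 of 7 fibroblast and smooth muscle markers rose (Col3a1 and Pdgfra) and 1 fell (Tagln). Over this step 2.79% of all genes tested rose and 2.29% fell, so the share of myotube markers is near the background. From 12 to 60 h 5 myotube markers rose: Myh1, Myh2, Myh4, Mef2c and Ckmt2. The 4 that fell were Myh7, Tnnt1, Mymx, needed for fusion, and Myog, the regulator of early differentiation. Of all genes tested 9.5% rose and 6.56% fell over this span. Over that span 2 myoblast markers rose and 1 fell, and all 7 fibroblast and smooth muscle markers tested rose. These names outside the rule were chosen after their values were seen. The summed level of the myoblast and reserve cell markers was 1982 to 2350.1 CPM at 12 h and 2079 to 2478 CPM at 18 h. These overlapped. That of the fibroblast and smooth muscle markers was 10361 to 10752 and 11484 to 12269.9 CPM, without overlap. At 60 h the latter were at 13132 to 14677 CPM. The 6 adipocyte markers summed to 3.3 to 3.57 CPM at 12 h and 3.17 to 4.69 CPM at 18 h, with no read of Cidec, and no read of Thy1, a fibroblast marker, was found.

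The courses of the members were alike in most but not all cases. The correlation over 9 time point means between a member and the mean of the other 41 was highest for Mcm5 (0.98), Prim1 (0.97) and Gins1 (0.97) and lowest for Rrm1 (-0.33), Tk1 (0.15) and Rpa3 (0.37). These points share their libraries, and the values are a description. Outside the members, the 8 genes whose 9 means followed the mean course of the members most closely, among 11451 genes ranked, were Atad5 (0.98), Wdhd1, Donson, Dnmt1, Clspn, Chaf1b, Atad2 and Tubgcp2 (0.95). Atad5 had a mean level of 17.4 CPM and Dnmt1 of 150.2 CPM.

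The start regions of 34 of the 42 members were found in the RefSeq windows of 300 bases, 250 before and 50 after the start, and 8 members had no window there. One of the 4 E2F spellings printed above was present on either strand for 14 of 34 members (41.2%), for 2.6% of the 27025 genes with a window, and for 1 of 31 mitosis genes (3.23%). The letters CCAAT were present for 61.8% of the members, 80.6% of the mitosis genes and 41.1% of all genes. The element TTTGAA or TTCGAA, the spelling of the cell cycle homology region found in many mitosis genes, was present for 6 of 34 members (17.6%), 24 of 31 mitosis genes (77.4%) and 21.7% of all genes. The windows of the members had a median GC content of 60.1%, against 52.8% for all genes with a window, and these shares were not matched for it. Of all genes tested 2.29% fell from 12 to 18 h. Whether a spelling and a fall go together was not tested. Of the 14 members with an E2F spelling 8 fell from 12 to 18 h (median log2 change over the 14 of -0.47), namely Mcm3, Mcm5, Mcm6, Mcm7, Cdc6, Cdt1, Pold1 and Uhrf1. The others with a spelling, Gins3, Lig1, Orc1, Pola1, Pole2 and Rfc3, did not pass. Of the 20 without 7 fell (median over the 20 of -0.28), among them Mcm2, Mcm10 and Pola2, and of the 8 with no window 2 fell, Mcm4 and Ccne2. Rrm1, whose printed stretch holds no match, and Tk1, Rrm2 and Tyms are among the 20, as is Pcna, which fell.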

How the data were processed

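Total RNA was extracted with an AllPrep kit and libraries were made with a TruSeq Stranded Total RNA kit with Ribo-Zero depletion, per the labels' protocols. The authors deposited raw counts per gene, made with Trim Galore 0.4.0, cutadapt 1.9.1, featureCounts and the mm10 genome, per the submitters' processing notes. The aligner, the annotation release and the strand option of counting were not given in the sources used here. Every column of the deposited counts was matched to 1 of the 27 samples by its name.

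From these counts, genes with too few reads were removed with filterByExpr (minimum count 10), which left 12687 of 20446. Libraries were scaled by TMM (factors 0.979 to 1.03), and edgeR 4.0.16 (R 4.3.3) quasi-likelihood tests were fitted over all genes and all 27 libraries, with Benjamini-Hochberg adjustment over all genes tested and a threshold of 0.05. Fold changes are from this fit, their intervals are 95% intervals, and log CPM used a prior count of 2. The tests covered any change over 9 time points, 8 successive steps, 36 and 60 h against 12 h, 60 against 36 h, and a slope with a 24 h rhythm. A term alternating between successive time points was also tested in a fit with that slope and rhythm. Alternatives were DESeq2 1.42.0, limma-voom 3.58.1, other scalings and filters, a stricter threshold of 0.01, a fit of only the libraries compared, a replicate block, and leaving out single libraries, the 12 h libraries or all libraries of 1 number. The fits were also run on simulated data with independent libraries and no effect of the library number. No result given here rests on that run. Gene positions and exon lengths come from GENCODE M21, which matched 20327 of the 20446 identifiers. Tables and figures used pandas 2.3.3, numpy 2.4.6, scipy 1.17.1 and matplotlib 3.10.9.

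Members and lists were chosen with earlier results of these data known. Full values are given for up to 4 members of each role with the smallest p for any change, for up to 3 genes of each other list and for the 8 genes of most similar course among those with a mean of at least 1 CPM. Other members are named with single values where a count or an overlap calls for it.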

Additional observations from a re-analysis of the deposited data

How the results depend on the processing

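Leaving out each of the 27 libraries in turn gave 17 to 25 members for a change of any shape, 13 to 21 lower from 12 to 18 h, 17 to 25 lower at 60 than at 12 h, 9 to 20 lower at 36 than at 12 h, 0 to 1 lower at 60 than at 36 h, 4 to 12 lower along the slope and 0 to 0 rhythmic. The range was 0 to 1 higher and 0 to 1 lower from 18 to 24 h, 0 to 1 higher from 24 to 30 h, 0 to 4 lower from 48 to 54 h and 0 to 1 lower from 54 to 60 h, and 0 to 0 for the other counts. With a replicate block, the library number as a term, the counts were 38 for any change, 10 lower along the slope, 27 lower at 36 than at 12 h, 1 lower at 60 than at 36 h, 32 lower from 12 to 18 h, 1 higher and 6 lower from 18 to 24 h, 2 higher and 1 lower from 24 to 30 h, 1 lower from 36 to 42 h, 3 higher from 42 to 48 h, 10 lower from 48 to 54 h and 1 lower from 54 to 60 h. In the block fit 5158 of all 12687 genes tested passed for any change, beside 2345 in the main fit. Along the slope 1883 fell (1106 in the main fit), and at 36 h 1808 were lower than at 12 h (856). At 60 h 1729 were lower than at 12 h (832). From 12 to 18 h 773 fell (291), and from 48 to 54 h 97 fell (15). From 18 to 24 h 354 rose and 321 fell, and from 24 to 30 h 305 rose and 111 fell. From 36 to 42 h 123 of all genes tested fell, from 42 to 48 h 30 rose and from 54 to 60 h 56 fell. At 60 h 197 were lower than at 36 h. The block called 3 of 3 genes of replication protein A for any change, 2 at 18 h and 3 at 60 h against 12 h. It called 2 of the 5 GINS and Orc1 genes at 18 h, and of the 4 genes of nucleotide supply 1 at 18 h and 2 at 60 h. At 60 h against 12 h it called 6 of 6 clamp and clamp loader genes (4 in the main fit). Of primase and the polymerases it called 6 of 7 there (5 in the main fit). The helicase (6 of 6) and the G1/S regulators (2 of 3) had the same count in both fits. The members called from 36 to 42 h and from 42 to 48 h were Lig1, and Mcm3, Mcm5 and Ccne2. Deviations of libraries with the same number correlated above 0.1 in 91 of 108 pairs (lowest -0.0558, median 0.331, highest 0.692). Of the 27 libraries 26 correlated best with their own number. Libraries of the same number thus shared part of their deviation. The main fit holds no term for the number, so its counts of 0, such as those for replication protein A, depend on that choice.

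Without the 9 libraries numbered 1 the counts were 10 for any change, 0 along the slope, 10 lower at 60 h, 6 lower at 36 h, 10 lower at 18 h, and 0 for the calls from 18 to 24 h, 24 to 30 h and 48 to 54 h. Without those numbered 2 these last 3 counts were also 0, and without those numbered 3 they were 0 with 2 along the slope and 8 lower at 36 h. Of all 12686 genes tested without those numbered 1, 761 passed for any change. At 60, 36 and 18 h 311, 368 and 88 of these were lower than at 12 h. Of all 12664 genes tested without those numbered 3, 817 fell along the slope and 426 were lower at 36 h. Without the 12 h libraries 11 members passed for any change and 0 along the slope. Of the 12646 genes then tested 1197 passed for any change and 493 fell along the slope. The slope estimate for Mcm6 was then 0.0964, reversed from its fall. A slope without the 24 h terms gave 8, and a fit of only the 6 libraries compared gave 7 lower at 36 h. At an adjusted p of 0.01, 8 were lower at 36 h and the calls from 18 to 24 h, 24 to 30 h and 48 to 54 h were 0; without the filter the call from 18 to 24 h was 0. DESeq2 gave 1 lower at 60 than at 36 h, 6 lower from 48 to 54 h and 1 lower from 54 to 60 h. Of all 12687 genes tested it called 83, 32 and 13 lower in these comparisons. The causes of these differences were not tested. The fits that leave libraries out also hold fewer libraries.

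For single named members, leaving out 1 library kept direction and side of the threshold in 1931 of 2052 cases, and 121 lost the call. The other settings kept it in 683 of 824, 140 lost it and 1 reversed. With 3 libraries a time point, intervals of single members are wide, and a miss does not show that a gene stayed the same.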
